A study of Homo sapiens with 40 samples.

Results

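The comparison described here sets U87 cells that express the truncated IRE1 variant Q780* against U87 cells that express wild-type (WT) IRE1, both under basal conditions, that is without tunicamycin. It was chosen by the genotype and condition in the sample labels, which gave 3 arrays per line and thus 6 of the 40 arrays of the series, and it covers all genes tested. U87 is an established human glioblastoma line. In Q780* a stop codon within the kinase domain removes the end of that domain and the RNase domain behind it. Both proteins were stably expressed from a lentiviral vector (pCDH-CMV-MCS-EF1-Puro-copGFP, in which the CMV promoter drives the inserted gene and copGFP marks the cells) on top of the IRE1 that U87 cells make themselves, and neither line was treated. Cells with the empty vector (EV) under the same conditions give the background of each gene. Q780* arrays carry "clone 4" in their titles and WT arrays no clone number, while the study's methods speak of polyclonal populations, so a difference between these lines and one between clones cannot be told apart. The replicates are called biological without a word on separate cultures, and the p-values therefore measure only the spread between these arrays.

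IRE1 is a sensor of unfolded proteins in the membrane of the endoplasmic reticulum (ER) with a kinase and an RNase domain. Its RNase domain cuts a short intron out of XBP1 mRNA, and the spliced mRNA encodes XBP1s, a transcription factor that raises genes of protein import into the ER, folding, glycosylation and secretion. The same domain degrades other mRNAs at the ER membrane, which is called regulated IRE1-dependent decay (RIDD), and IRE1 has also been linked to NF-kB and JNK signaling. In glioblastoma, cytokines, matrix proteins and factors that act on vessels are among the secreted products that pass through the ER.

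Lower in Q780* than in WT cells were 5 of 11 CXC chemokines, 6 of 14 interleukins and growth cytokines and 19 of 33 targets of XBP1s, and 7 of 42 matrix genes were higher. Of 17191 genes tested, 44 were called lower (0.256% of genes tested) and 28 higher (0.163%) at a Benjamini-Hochberg adjusted p under 0.05 from limma and a difference of at least 2-fold. At the adjusted p alone, which is the rule used below for members of gene lists, 163 were lower (0.948%) and 153 higher (0.89%). The 3 Q780* arrays all lay under the 3 WT arrays for 43 of the 44 genes called lower, where 6.17% of all genes did so, and all above them for 26 of the 28 called higher, where 7.42% did. MAGEL2 among the lower genes, and GLIS1 and CPE among the higher, had arrays that overlapped. The median difference over all genes tested was 0.00738 on the log2 scale. As these are arrays of bulk RNA, fewer cells that express a gene and less of its RNA per cell cannot be told apart.

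These calls come from a fit without a replicate term and rest on a spread estimated over all 40 arrays of the series. Fitted on only the 6 arrays compared, 15 genes were called, and 9 were called when the replicate number was added as a block to that fit (CXCL3, CXCL8, DCC, DNAJB9, EIF1AY, HMGN2P46, MMP3, PARM1 and PI3). With the block over all arrays 75 genes were called, and all 72 still passed the adjusted p. After leaving out each of the 6 arrays in turn, 50 of the 72 passed in every fit. Of the 72 genes, 33 had other probe sets above the floor, 49 in all, of which 44 pointed the same way and 15 did so by at least 2-fold.

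The chemokines CXCL1, CXCL2, CXCL3, CXCL5 and CXCL8, small secreted proteins that draw neutrophils through the receptors CXCR1 and CXCR2, were all called lower, and their genes lie near each other on chromosome 4. Promoter stretches of these 5 genes are shown because the members moved together and each holds the letters GGAATTTCC, a form of the NF-kB motif, given in capitals. The sequences are RefSeq sequences of build GRCh38.p14, written 5′ to 3′ on the strand of the gene, at chr4:73869275-73869363 (+) for CXCL1, chr4:74099224-74099312 (-) for CXCL2, chr4:74038719-74038807 (-) for CXCL3, chr4:73998719-73998807 (-) for CXCL5 and chr4:73740438-73740526 (+) for CXCL8.
CXCL1: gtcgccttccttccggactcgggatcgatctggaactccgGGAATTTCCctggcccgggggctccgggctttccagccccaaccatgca
CXCL2: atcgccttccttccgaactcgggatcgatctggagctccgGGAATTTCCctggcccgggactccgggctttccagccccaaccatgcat
CXCL3: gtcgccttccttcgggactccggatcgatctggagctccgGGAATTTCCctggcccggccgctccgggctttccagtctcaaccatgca
CXCL5: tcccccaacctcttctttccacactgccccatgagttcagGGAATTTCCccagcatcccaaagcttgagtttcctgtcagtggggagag
CXCL8: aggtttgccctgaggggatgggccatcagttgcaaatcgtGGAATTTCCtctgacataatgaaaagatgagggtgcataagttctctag
The motif starts 78, 77, 78, 90 and 91 bases before the annotated start of CXCL1, CXCL2, CXCL3, CXCL5 and CXCL8. Searched on both strands of the 250 bases before the start, it was in 137 of 27305 genes with a promoter sequence (0.502%). Of genes tested, 69 of 13531 held it (0.51%), where any annotated promoter of a gene counted. Among genes called lower it was in 6 of the 31 with a promoter in the table (19.4%), namely these 5 chemokines and NFKBIZ, and among genes called higher in 0 of 23. The 5 chemokines were shown for holding it, and the stretches of CXCL1, CXCL2 and CXCL3 are nearly alike. The share is therefore no test of the lower genes as a group, and IL6, IL1B and PTGS2 among them lack the motif. CXCL10, which did not pass the test, holds it too, as 1 of the 4 tested CXC chemokines with a promoter in the table that did not pass. A match is a description of the letters and not of binding.

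CXCL1 had log2 signals of 4.03, 4.47 and 4.42 on the Q780* arrays and of 7.04, 6.87 and 5.78 on the WT arrays. CXCL2 had 7.16, 7.98 and 7.16 against 10.20, 10.28 and 9.11. CXCL3 had 5.13, 5.07 and 4.63 against 8.32, 8.48 and 7.38. In all 3 genes the groups did not overlap, and WT replicate 3 was the lowest of the WT arrays. CXCL5 had 4.07, 4.21 and 4.26 on the Q780* arrays, all below the 40th percentile of their array (called the floor from here on), and 7.72, 6.92 and 5.93 on the WT arrays. CXCL8, or interleukin 8, had 9.94, 10.00 and 9.45 against 12, 12.02 and 11.33. The groups again stood apart in both genes.

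The Q780* minus WT difference was -3.12 for CXCL3 (standard error 0.36, adjusted p = 1.16e-06), -2.68 for CXCL5 (0.30, adjusted p = 6.21e-07) and -2.43 for CXCL2 (0.43, adjusted p = 0.00088) on the log2 scale. It was -2.25 for CXCL1 (0.24, adjusted p = 2.4e-07) and -1.98 for CXCL8 (0.34, adjusted p = 0.000706). CXCL3 was thus 8.67-fold, CXCL2 5.39-fold and CXCL8 3.96-fold lower. CXCL1 was 4.77-fold lower with 1 of its 3 Q780* arrays below the floor, and CXCL5, with all 3 below it, was at least 5.92-fold lower when these arrays are set to the floor. They were the 5 of 11 tested CXC chemokines that passed, and the other members, among them CXCL10 (0.10), CXCL12 (-0.18) and CXCL16 (-0.10), differed by at most 0.18 in size. The list's median was -0.18, against 0.00738 over all genes. On only the 6 arrays compared 1 CXC chemokine passed, and 2 with the replicate block on these. None of 7 CC chemokines passed in limma, nor did any at an unadjusted p under 0.05, with CCL5 at -0.49 (adjusted p = 0.608) and CCL26 at 0.55 (adjusted p = 0.659). CXCL8's second probe set gave -2.92, while the other probe sets of CXCL2 and CXCL5 stayed below the floor on these arrays. The probe sets used for CXCL2, CXCL5 and CXCL8 are marked x_at, as are those of HMGN2P46, CEP43, GLIS1, OPN3 and SPANXC. Whether they also read similar transcripts was not tested, so these chemokines need not be separate measurements.

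**Figure D1:**
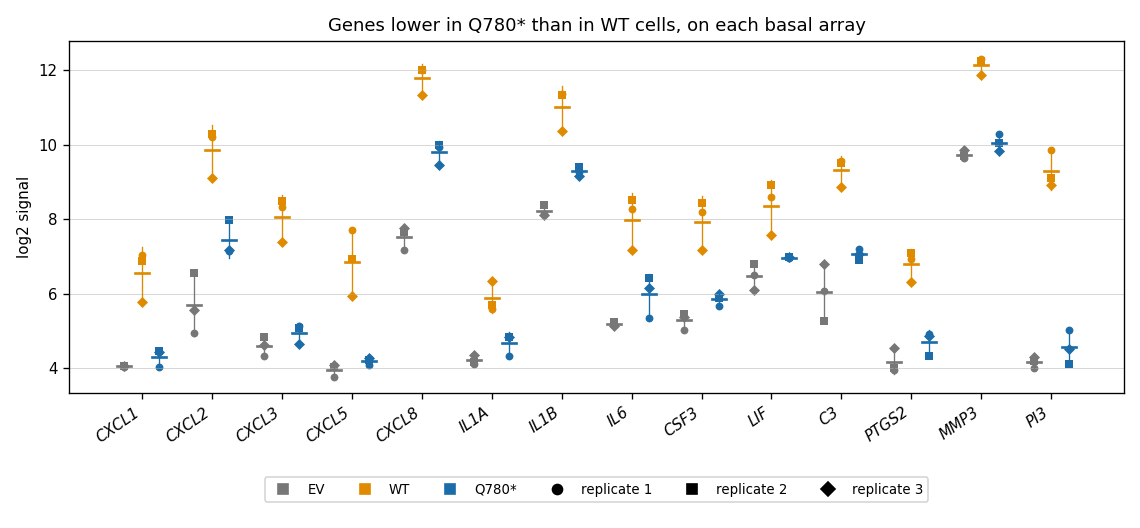
Log2 signal (y axis) of 14 genes on each basal array of EV (grey), WT (orange) and Q780* cells (blue), with the replicate number as marker shape, the mean as a horizontal bar and 1 SD as a vertical line (n = 3 arrays). In each gene the 3 Q780* arrays lie under the 3 WT arrays, and CXCL8 and IL1B in Q780* cells lie between EV and WT cells.

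Of interleukins and growth cytokines, 6 of 14 tested genes were lower. IL1B, a secreted alarm cytokine that starts fever and inflammation, had 9.28, 9.40 and 9.17 in Q780* against 11.35, 11.32 and 10.37 in WT cells, a difference of -1.74 (standard error 0.28, adjusted p = 0.000258). IL6, which signals through STAT3, had 5.35, 6.42 and 6.16 against 8.27, 8.51 and 7.16, a difference of -2.0 (0.35, adjusted p = 0.000844). CSF3, the growth factor of granulocytes, had 5.66, 5.88 and 5.98 against 8.20, 8.44 and 7.16, a difference of -2.09 (0.39, adjusted p = 0.00155). All 3 genes had groups without overlap and a WT replicate 3 under the other WT arrays.

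LIF, a cytokine of the IL6 family, had 6.94, 6.98 and 6.97 against 8.58, 8.91 and 7.56 and differed by -1.38 (standard error 0.27, adjusted p = 0.00304). IL1A had 4.33, 4.84 and 4.84 against 5.59, 5.70 and 6.34 and differed by -1.21 (0.28, adjusted p = 0.0127), here with WT replicate 3 as the highest array. LIF did not pass without WT replicate 2, and IL1A did not pass without Q780* replicate 1 or without WT replicate 3. The differences over all leave-one-out fits were -1.78 to -1.10 for LIF and -1.35 to -0.975 for IL1A. The other IL1A probe set above the floor gave 0.0261, so the lower value of IL1A rests on 1 probe set. IL36B (-1.43, standard error 0.21, adjusted p = 5.98e-05), a further interleukin 1 family member, and IL36RN (-1.73, 0.27, adjusted p = 0.000175), which encodes the antagonist of the IL36 receptor, were lower as well. The 6 lower members of the list do not include both IL36B and IL36RN. IL1A, IL1B, IL36B and IL36RN all lie on chromosome 2. Over the 14 genes 0 were higher and the median was -0.33, and IL11 (0.06), IL24 (-0.16) and IL1RN (0.18), the antagonist of the interleukin 1 receptor, did not pass. On only the 6 arrays compared, with and without the replicate block, 0 members passed the adjusted p in limma and 6 an unadjusted p under 0.05.

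Of 25 tested NF-kB response genes, 5 were lower and 0 higher, and the median was -0.36, with 23 members below 0. C3, the central component of complement, had 7.19, 6.91 and 7.07 in Q780* against 9.56, 9.5 and 8.86 in WT cells (-2.25, standard error 0.35, adjusted p = 0.000145). PTGS2, the inducible enzyme of prostaglandin synthesis, had 4.91, 4.31 and 4.85 against 6.93, 7.10 and 6.32 (-2.09, 0.32, adjusted p = 0.000148). Neither gene had overlapping groups. NFKBIZ, a nuclear cofactor of NF-kB, had 7.31, 8.12 and 7.89 against 9.29, 9.43 and 8.71 (-1.37, 0.30, adjusted p = 0.00726), and did not pass without Q780* replicate 1 or WT replicate 2 (leave-one-out range -1.59 to -1.14). SOD2, the mitochondrial superoxide dismutase, was lower at -0.95 (adjusted p = 0.00331) and TNIP1, which restrains NF-kB signaling, at -0.81 (adjusted p = 5.21e-05). NFKBIA (-0.47, adjusted p = 0.414) and TNFAIP3 (-0.44, adjusted p = 0.257), which encode inhibitors of the pathway, did not pass. Without Q780* replicate 1, 3 members of the list passed. On only the 6 arrays compared 1 passed, and 0 with the replicate block on these, where 11 had an unadjusted p under 0.05 in limma. TREM1, a receptor that amplifies inflammatory signals on myeloid cells, was lower too (-1.73, standard error 0.34, adjusted p = 0.0028), with 2 of its 3 Q780* arrays below the floor.

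None of 35 interferon-stimulated genes passed in limma (median 0.09), 1 was lower and 3 higher at an unadjusted p under 0.05, and USP18, an enzyme that removes ISG15 from proteins, had the widest difference at 0.59 (adjusted p = 0.2). Nor did any of 18 ERK feedback genes pass (median 0.05, with 1 higher at an unadjusted p under 0.05). Of 18 AP-1 and immediate early genes, 1 passed, MAFF, a small MAF transcription factor (-0.63).

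The gene with the widest difference was PI3, which encodes elafin, an elastase inhibitor made by epithelia. It had 5.03, 4.12 and 4.51 on the Q780* arrays and 9.86, 9.11 and 8.91 on the WT arrays, and was 26.7-fold lower, with 1 Q780* array below the floor (-4.74, standard error 0.39, adjusted p = 2.78e-09). Its other probe set gave -5.28. PI3 was the only one of 13 tested epithelial markers to pass, and with it the summed linear signal of the 14 epithelial markers on the array was 326 to 357 in Q780* and 748 to 1224 in WT cells. Without PI3, the other 13 summed to 309 to 325 in Q780* and 267 to 294 in WT cells, so WT cells had the higher sum through PI3. KRT14, KRT18 and CLDN11 were below the floor on all 6 arrays.

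MMP3, a secreted protease that cleaves matrix proteins, had 10.28, 10.05 and 9.82 in Q780* against 12.30, 12.24 and 11.87 in WT cells. It differed by -2.09 (standard error 0.31, adjusted p = 6.92e-05), and MMP12, with all Q780* arrays below the floor, was at least 1.38-fold lower (adjusted p = 0.0238). The collagenase MMP1 had 7.45, 7.55 and 7.80 against 8.95, 8.58 and 7.95 and did not pass (-0.89, adjusted p = 0.34). TIMP2 and TIMP3, inhibitors of such proteases, were higher in Q780* cells. TIMP2 had 10.86, 10.98 and 11 against 10.16, 10.20 and 10.18, a narrow spread in both groups (0.77, standard error 0.07, adjusted p = 3.15e-08), and TIMP3 differed by 0.76 (0.20, adjusted p = 0.0474). These were the only 4 of 24 metalloproteinases and inhibitors that passed, 2 lower and 2 higher.

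PARM1, a mucin-like membrane protein, was 7.58-fold lower, with 5.05, 6.19 and 5.82 against 8.35, 8.60 and 8.88 (-2.92, standard error 0.22, adjusted p = 4.11e-10). ABI3BP, a matrix protein, had 5.35, 5.75 and 5.98 against 8.04, 7.72 and 7.66 (-2.11, 0.18, adjusted p = 5.75e-09). A dimmer ABI3BP probe set, with means of 4.02 in Q780* and 4.16 in WT cells, gave -0.14. HMGN2P46, an annotated pseudogene, had 3.60, 3.71 and 3.94 against 6.23, 5.95 and 6.14 (-2.36, 0.15, adjusted p = 5.91e-12), with all Q780* arrays below the floor, which makes it at least 3.52-fold lower. These 3 genes had no overlap between the lines. EIF1AY, a Y-linked translation factor, was also below the floor on all Q780* arrays and at least 4.24-fold lower, and was the only one of 23 Y-linked genes tested that passed. FGF2, a growth factor for vessels and glia, had 9.24, 9.29 and 9.55 against 10.61, 10.34 and 10.39 (-1.08, 0.14, adjusted p = 6.39e-06). With NRP2 (-0.76), a co-receptor of semaphorins and VEGF-C, it was 1 of 2 angiogenesis genes of 23 tested that passed, both lower.

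Further genes called lower were the kinase gene DCLK1 (-1.71), DNAJC12 (-1.57), a J-domain co-chaperone, TMEM132A (-1.44), the phosphatase gene PTPRR (-1.43), RRAD (-1.37), a small GTPase, DAW1 (-1.31), G0S2 (-1.28), an inhibitor of lipolysis, PNLIPRP3 (-1.19), CEP43 (-1.18), MAGEL2 (-1.13), FDCSP (-1.12), RIPOR3 (-1.08), the lysosomal protease gene CTSS (-1.06), HLA-DQA1 (-1.05) and HDAC9 (-1.02), a histone deacetylase. Of these, HLA-DQA1 lost the adjusted p in 5 of the 6 leave-one-out fits, MAGEL2 and RIPOR3 in 4, PNLIPRP3 and TMEM132A in 3, HDAC9 in 2 and FDCSP in 1. MAGEL2 had 2 Q780* arrays below the floor and FDCSP had 1. CEP43 and TMEM132A rest on 1 probe set, since their other probe sets above the floor gave -0.13, -0.29 and 0.29, and 0.03, -0.15 and 0.16. Those of HDAC9 gave -0.155 and -0.279, those of DNAJC12 -0.584 and -0.342, and that of PTPRR -0.393. NRG1, a ligand of ERBB receptors, was lower at -0.87 (adjusted p = 0.00306), the only one of 11 genes of EGF receptors and their ligands to pass, next to which BTC passed with the replicate block over all arrays (adjusted p = 0.0483).

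Targets of XBP1s were lower as a group. Of 33 tested, 19 were lower and 0 higher at the adjusted p, all 33 differences were below 0, and the median was -0.38, against 0.948% of all genes lower and a median of 0.00738 over all genes. On only the 6 arrays compared 1 passed, with and without the replicate block, where 22 and 21 had an unadjusted p under 0.05 in limma. DNAJB9, which encodes the ER co-chaperone ERdj4, had 8.51, 8.38 and 8.20 in Q780* against 10.35, 10.14 and 9.91 in WT cells, with no overlap. It was the only member that differed by at least 2-fold, at 3.42-fold lower (-1.77, standard error 0.16, adjusted p = 8.06e-09), and its other probe sets gave -2.64 and -3.26. The promoter stretch of DNAJB9 (RefSeq, GRCh38.p14, chr7:108569760-108569844, +) and that of FKBP11 (chr12:48925645-48925729, -) are shown with CCACG, the part of the ER stress element that XBP1s and ATF6 contact, or its reverse complement CGTGG, in capitals. Both genes were picked by name as called genes that hold these letters, so the stretches are no test. FKBP11 is not in the list of XBP1s targets.
DNAJB9: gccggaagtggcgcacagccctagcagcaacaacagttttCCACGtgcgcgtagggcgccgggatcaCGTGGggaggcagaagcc
FKBP11: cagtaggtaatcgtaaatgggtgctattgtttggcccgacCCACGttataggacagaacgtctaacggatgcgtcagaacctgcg
CCACG, searched in the same way, was in 24 of the 29 XBP1s targets with a promoter in the table (82.8%). It was in 48% of genes tested and in 37.5% of all genes with a promoter sequence. Among called genes with a promoter in the table it was in 14 of 31 lower (45.2%) and 11 of 23 higher ones (47.8%), shares near that of all genes tested. The whole ER stress element (CCAAT, 9 bases of any kind, then CCACG) was in 3 of the 29 XBP1s targets, CRELD2, PDIA6 and SERP1. It was in 0 of the 31 called lower and in 0.0916% of all genes with a promoter sequence.

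The other members that passed had smaller differences. SDF2L1, an ER chaperone cofactor, differed by -0.65 (standard error 0.15, adjusted p = 0.0188). Genes of the translocon and of its partners, through which new proteins enter the ER, were lower together, with SSR2 at -0.63, SEC63 at -0.57, SSR1 at -0.50, SEC61A1 at -0.48, SEC61B at -0.45, SSR4 at -0.42, SSR3 at -0.32 and TRAM1 at -0.31. SRPRB (-0.48), a subunit of the receptor that docks the ribosome, SPCS3 (-0.38), a subunit of signal peptidase, SERP1 (-0.41) and OSTC (-0.38), a subunit of oligosaccharyltransferase, passed as well. So did the co-chaperones DNAJC3 (-0.55) and HSPA13 (-0.55), the hexosamine enzyme GFPT1 (-0.52), the coat protein SEC23B (-0.48) and the disulfide isomerase PDIA6 (-0.28). Their standard errors were between 0.07 and 0.15 and their adjusted p-values between 0.000114 and 0.0418. EDEM1 (-0.16, adjusted p = 0.686), a factor of ER-associated degradation, HYOU1 (-0.15, adjusted p = 0.885) and SYVN1 (-0.08, adjusted p = 0.973) did not pass.

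Genes of ER function outside that list were among the genes called. SEC11C, the catalytic subunit of signal peptidase, had 9.41, 9.13 and 9.14 against 10.25, 10.27 and 10.38 (-1.07, standard error 0.12, adjusted p = 7.79e-07). FKBP11, a prolyl isomerase of the secretory pathway, had 7.88, 7.75 and 8.27 against 9.11, 9.20 and 9.11 (-1.18, 0.13, adjusted p = 8.36e-07). WFS1, an ER membrane protein, differed by -1.03 (adjusted p = 3.35e-06) and NUCB2, a calcium-binding protein, by -1.25 (adjusted p = 3.15e-08). In each of these genes the groups did not overlap. They were picked because they were called, so they are a description and no support for the list.

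Of 17 ATF6 targets and ER chaperones, 6 were lower and 0 higher (median -0.25). P4HB, the main protein disulfide isomerase, had 11.22, 11.14 and 11.10 against 11.86, 11.88 and 11.72 (-0.67, standard error 0.09, adjusted p = 3.19e-05). MANF, an ER stress-induced secreted factor, differed by -0.64 (adjusted p = 0.00128) and PDIA4 by -0.53 (adjusted p = 0.000354). FKBP2, ERP44 and CANX passed at smaller differences. On only the 6 arrays compared 0 passed in limma, with 7 at an unadjusted p under 0.05 (0 and 8 with the replicate block). Of 37 targets of PERK and ATF4, the stress branch that governs amino acid supply, 3 were lower and 0 higher (median -0.07). They were ALDH1L2 (-1.6, adjusted p = 0.023), a mitochondrial folate enzyme, SLC3A2 (-0.83, adjusted p = 0.0389), the heavy chain of amino acid transporters, and DDIT4 (-0.48, adjusted p = 0.0138), an inhibitor of mTORC1. ALDH1L2 lost its call without any 1 of the arrays except WT replicate 2, over a range of -1.85 to -1.29. SLC7A11, the cystine transporter (0.66, adjusted p = 0.0511), and PHGDH (0.64, adjusted p = 0.0756) pointed the other way without passing.

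Of the sensors themselves, EIF2AK3, the gene of PERK, was lower, with 7.88, 8.18 and 8.30 against 8.76, 8.64 and 8.65 (-0.57, standard error 0.11, adjusted p = 0.00367). ERN1, the gene of IRE1, had 5.89, 6.30 and 6.62 against 6.12, 5.75 and 6.33 on the probe set used, with overlapping groups (0.20, 0.25, adjusted p = 0.918), and EV cells, without added IRE1, had 5.81, 6.59 and 5.86 there. On another probe set, mean signals were 5.18 in EV, 5.76 in WT and 6.06 in Q780* cells, and on the last one 5.06, 5.36 and 4.95. No source at hand tells where these probe sets lie relative to the expressed genes, and the 3 probe sets order the lines differently, so ERN1 checks the labels only in part. XBP1 had 9.18, 9.04 and 9.04 against 9.59, 9.33 and 9.33 and did not pass (-0.33, 0.10, adjusted p = 0.1), and its probe sets do not tell spliced from unspliced mRNA. None of the other 5 genes of the list (ATF4, ATF6, ATF6B, DDIT3 and ERN2) passed.

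Of 11 tested mRNAs reported as RIDD substrates, 2 were higher and 0 lower (0.89% of all genes were higher), 2 differences were below 0, and the median was 0.31. At an unadjusted p under 0.05, 5 were higher and 1 lower. CD59, a membrane inhibitor of complement, had 11.88, 11.87 and 11.90 in Q780* against 10.96, 10.94 and 10.94 in WT cells, which was 1.91-fold higher with little spread (0.94, standard error 0.09, adjusted p = 3e-08). COL6A1, a collagen chain, had 10.42, 10.25 and 10.53 against 9.88, 10.02 and 9.84 (0.49, 0.13, adjusted p = 0.039). SCARA3 had 5.05, 5.81 and 6.47 against 4.46, 4.92 and 5.55, with overlapping groups (0.80, 0.33, adjusted p = 0.341, and 0.249 with the replicate block over all arrays), although the arrays of equal number differed by 0.59, 0.89 and 0.92. BLOC1S1 (0.51, adjusted p = 0.139), HGSNAT (0.50, adjusted p = 0.08), PER1 (0.31, adjusted p = 0.713), SPARC (0.15), PDGFRB (0.25), GPC3 (0.08), VEGFA (-0.19) and TNFRSF10B (-0.22) did not pass.

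Of genes called higher, THBS1, which encodes the matrix protein and angiogenesis inhibitor thrombospondin 1, differed most. It had 8.11, 8.52 and 9.09 on the Q780* arrays and 5.38, 5.08 and 7.35 on the WT arrays, with WT replicate 3 far above the other WT arrays but under all Q780* arrays, and was 6.22-fold higher (2.64, standard error 0.39, adjusted p = 8.22e-05). Its leave-one-out range was 2.21 to 3.34. Of its 5 other probe sets, 1 gave 2.37, and the others gave 0.69, 0.60, 0.10 and -0.03.

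APCDD1L had 7.87, 7.75 and 7.61 against 5.58, 5.31 and 6.77 (1.86, standard error 0.30, adjusted p = 0.000333). DCC, the netrin receptor, had 5.57, 6.00 and 6.50 against 4.00, 4.04 and 4.88 (1.72, 0.24, adjusted p = 3.64e-05). CFI, a protease that inactivates complement C3b, had 6.47, 7.16 and 7.15 against 5.07, 5.32 and 5.58 (1.6, 0.31, adjusted p = 0.00267). All 3 genes were higher on each Q780* array than on each WT array. PROS1, protein S of the anticoagulant system, had 9.19, 8.99 and 8.85 against 7.78, 7.52 and 7.60 (1.38, 0.17, adjusted p = 5.41e-06). RPS6KA2, a kinase downstream of ERK, had 6.42, 5.87 and 6.35 against 5.28, 4.42 and 4.79 (1.39, 0.21, adjusted p = 0.000127), while its other probe sets gave 0.15 and 0.23. BGLAP, the gene of osteocalcin, had 5.64, 6.33 and 6.66 against 4.49, 4.85 and 5.07 (1.41, 0.24, adjusted p = 0.000651). These 3 also stood apart between the lines. SPANXC (1.83, standard error 0.21, adjusted p = 7.82e-07) belongs to a family of near-identical copies, so which copy was read is uncertain.

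CPE, a carboxypeptidase that processes peptide hormones, had 6.22, 7.05 and 7.65 against 4.69, 5.33 and 6.62, with overlap between the groups (1.43, standard error 0.38, adjusted p = 0.0413), and arrays of equal number differed by 1.53, 1.72 and 1.03 (adjusted p = 0.00463 with the replicate block over all arrays). It lost its call in 4 of the 6 leave-one-out fits, all but those without Q780* replicate 1 or WT replicate 3 (range 0.997 to 1.96). TMEM200C (1.40) lost it without WT replicate 2 (range 1.17 to 1.67). HMGN3, a nucleosome-binding protein, differed by 1.16, ISM1 by 1.16, OLFML2A by 1.18 and GLIS1, a zinc finger factor, by 1.14. The rest of the genes called higher were FZD7 (1.13), a WNT receptor, CTSO (1.12), FOXF1 (1.12), F2RL2 (1.10), a protease-activated receptor, NTNG1 (1.08), TMEM19 (1.07), GAP43 (1.07), a growth cone protein, ILDR2 (1.05), PLXNA4 (1.04), a semaphorin receptor, SLC12A8 (1.04), BEND6 (1.03), NID2 (1.02), OPN3 (1.01) and OLFML2B (1.0). GAP43, GLIS1, ILDR2 and SLC12A8 lost the adjusted p in 4 of the leave-one-out fits, BEND6 and FZD7 in 3, and NTNG1, OPN3 and OLFML2B in 1. Other probe sets above the floor gave 0.459 and 0.191 for NTNG1, 0.256 for GAP43, 0.222 for BEND6 and 0.438 for FZD7. Those of TMEM19 gave 0.953 and 0.364, that of PLXNA4 0.815, that of OPN3 0.726 and that of CPE 1.08. For CFI and DCC they gave 0.575 and 0.54.

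**Figure D2:**
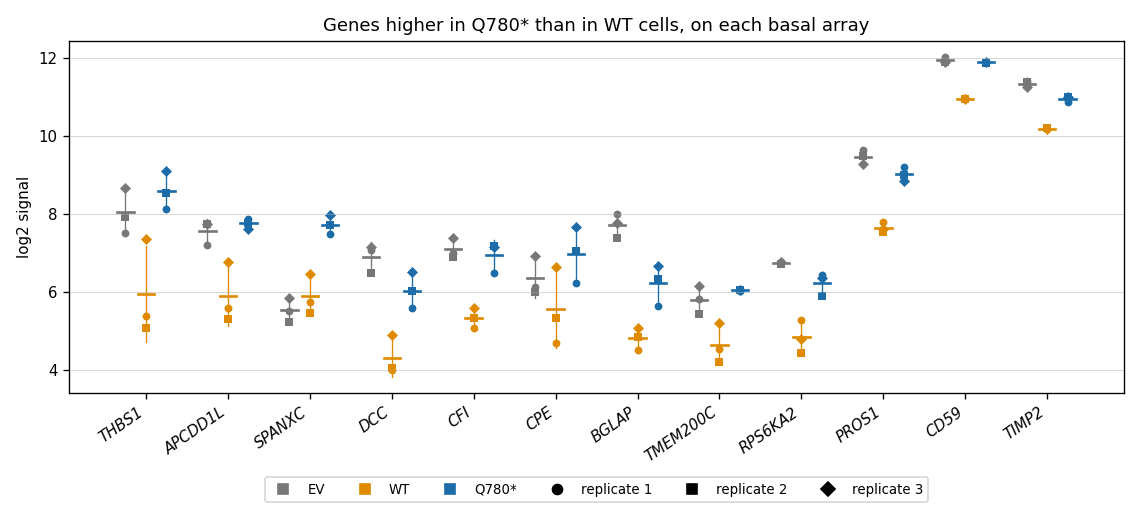
Log2 signal (y axis) of 12 genes higher in Q780* than in WT cells on each basal array of EV (grey), WT (orange) and Q780* cells (blue), with the replicate number as marker shape, the mean as a horizontal bar and 1 SD as a vertical line (n = 3 arrays). CD59 and TIMP2 have little spread, CPE overlaps between Q780* and WT cells, and WT replicate 3 of THBS1, at 7.35, stands above the other WT arrays.

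Among lists of the matrix and the cell surface, the members that passed were higher. Of 42 matrix glycoproteins and proteoglycans, 7 were higher and 0 lower (median 0.13). Next to THBS1 these were NID2, a basement membrane protein, with 8.61, 8.65 and 8.82 against 7.69, 7.37 and 7.97 (1.02, standard error 0.15, adjusted p = 7.22e-05), TNXB (0.89), EFEMP1 (0.86), LAMC1 (0.60), a laminin chain, VCAN (0.47) and FBN1 (0.43). Without Q780* replicate 1, 4 of the list passed, and on only the 6 arrays compared 0 passed in limma, with 9 at an unadjusted p under 0.05 (0 and 12 with the replicate block). Of 28 genes of the collagen list 2 were higher, COL4A6 (0.76) and COL8A1 (0.66), and the median was 0.22. COL6A1, higher as well, was counted among the RIDD substrates above and not in this list. COL13A1 had 9.33, 9.39 and 9.30 against 7.93, 8.16 and 8.0, which did not overlap, and did not pass (1.31, standard error 0.38, adjusted p = 0.08). With the replicate block over all arrays it passed (adjusted p = 0.0258), as did COL1A1 and COL5A1, while COL8A1 did not (adjusted p = 0.0521), so that 4 genes of the collagen list were higher. Of 17 integrins 2 were higher, ITGB5 (0.84, adjusted p = 0.0017) and ITGA10 (0.61), with a median of 0.20, and ITGB8 (1.13, adjusted p = 0.153) did not pass.

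AKR1C3 (0.84, adjusted p = 0.00024), a steroid-reducing enzyme, and NQO1 (0.47), a quinone reductase, were the 2 of 18 NRF2 targets that passed, both higher. IGFBP7 (0.72), which encodes a binding protein of the IGF family, was the only one of 10 genes of the IGF axis, and GADD45A (-0.53), a stress-induced growth arrest gene, the only one of 15 p53 targets. Of 8 plasminogen activators and serpins, SERPINB7 (-0.70) was lower and SERPINE2 (0.60) higher. In the lists of DNA replication (23 genes), mitosis (20), glycolysis (21), hypoxia (12), cholesterol (18) and fatty acid synthesis (9), mesenchymal transition (16), cadherins and cell adhesion (16) and metallothioneins (7), 0 genes passed the adjusted p in limma. The methods' t-test, adjusted, also passed 0, but it passed 0 of the 33 XBP1s targets too. Unadjusted, it passed 4 replication, 1 mitosis, 2 glycolysis, 5 hypoxia and 2 cholesterol genes. It also passed 3 fatty acid, 4 mesenchymal and 3 adhesion genes and 5 metallothioneins. At an unadjusted p under 0.05 in limma, 6 hypoxia genes, 4 of fatty acid and 1 of cholesterol synthesis, 3 of glycolysis, 3 metallothioneins, 2 mesenchymal and 2 adhesion genes were lower, and 4 mesenchymal genes, 1 adhesion, 1 cholesterol and 1 replication gene higher, with 0 mitosis genes. With the replicate block over all arrays, ANKRD37 of the hypoxia and PDK1 of the glycolysis list passed as lower and PRRX1 of the mesenchymal list as higher.

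The arrays of EV cells place these differences. Because both comparisons share the EV arrays and the arrays compared above, their values are set side by side as a description. The WT and Q780* arrays also enter the choice of the called genes. Counts of called genes in this paragraph and the next are therefore not to be read against the shares of all genes. Of the 44 genes called lower in Q780* cells, 43 were higher in WT than in EV cells at the adjusted p (4.9% of all genes were), 7 were higher in Q780* than in EV cells (3.36% of all genes), and 3 were lower in Q780* than in EV cells (1.83%). The gene outside the 43 was G0S2, with 7.56, 8.34 and 8.86 in EV, 7.86, 8.32 and 8.24 in WT and 6.89, 7.02 and 6.67 in Q780* cells. The 7 were CXCL2, CXCL8, IL1B, ABI3BP, FGF2, CTSS and HLA-DQA1, and CXCL8 had 7.16, 7.65 and 7.77 in EV cells, so its level in Q780* cells was 2.27 above EV cells where that of WT cells was 4.26 above. CXCL1 had 4.04, 4.05 and 4.06 in EV cells, 0.26 below Q780* cells (adjusted p = 0.714) and 2.51 below WT cells. DNAJB9 had 8.79, 8.52 and 8.01 in EV cells, with Q780* minus EV at -0.08 (adjusted p = 0.899) and WT minus EV at 1.70 (adjusted p = 2.55e-09).

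Of the 28 genes called higher in Q780* cells, 21 were lower in WT than in EV cells (3.68% of all genes were), 4 were lower and 4 higher in Q780* than in EV cells. THBS1 had 7.49, 7.92 and 8.67 in EV cells, near Q780* cells (0.54, adjusted p = 0.588) and above WT cells (-2.09, adjusted p = 0.000339). CD59 had 12.03, 11.89 and 11.90 in EV cells, with Q780* minus EV at -0.05 and WT minus EV at -0.99. HMGN3 went the other way, with 4.12, 3.91 and 3.92 in EV cells, 7.73, 7.10 and 7.39 in WT and 8.58, 8.40 and 8.71 in Q780* cells, so both lines with added IRE1 stood above EV cells. SPANXC, CTSO and NID2 were higher in Q780* than in EV cells, while their WT minus EV differences, 0.36, -0.05 and -0.27, did not pass. BGLAP, DCC, GAP43 and OLFML2A were lower than in EV cells in both lines and lower in WT than in Q780* cells. Of the 33 XBP1s targets, 21 were higher and 0 lower in WT than in EV cells (median 0.47), and 3 were higher and 1 lower in Q780* than in EV cells (median 0.02).

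Other arrays of the same lines, taken after 16 h in 0.5 µg/ml tunicamycin, which blocks N-linked glycosylation and so stresses the ER, give the difference between the lines in arrays other than the 6 compared. As the 72 genes were chosen for a wide basal difference, smaller values elsewhere are favoured by that choice. Of the 44 genes, 40 were below 0 there too and 24 passed the adjusted p (3.82% of all genes were lower there), with a median of -0.864 against -1.5 under basal conditions. Of the 28 genes, 22 were above 0 and 13 passed (3.98% of all genes were higher), with a median of 0.662 against 1.14. PI3 (-4.29), MMP3 (-2.29), CXCL5 (-2.18), IL1B (-2.18) and IL36RN (-1.78) were lower on tunicamycin at the adjusted p, and FZD7 (1.73), FOXF1 (1.30), THBS1 (1.25) and PROS1 (1.24) were higher. CXCL2 (-0.08, adjusted p = 0.964), CXCL3 (-0.25, adjusted p = 0.812), IL6 (0.20, adjusted p = 0.86), NFKBIZ (0.18) and ALDH1L2 (0.00) did not pass. Of the 33 XBP1s targets, 18 were lower on tunicamycin and 0 higher (median -0.33).

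Whether the difference between the lines itself differed between conditions was tested as an interaction, which 162 of all genes passed (0.942%), and 14 of the 72 called genes, 11 of those lower and 3 of those higher. The basal arrays enter both the choice of these genes and the interaction, so their count is a description and is not to be read against the share of all genes. CXCL3 (interaction 2.87, standard error 0.51, adjusted p = 0.00312), IL6 (2.20, 0.50, adjusted p = 0.0247), RRAD (1.48, 0.21, adjusted p = 0.000147), FGF2 (1.08, 0.19, adjusted p = 0.00336) and PARM1 (1.72, 0.31, adjusted p = 0.00336) had a smaller difference on tunicamycin. DCC (-1.82, 0.34, adjusted p = 0.00447) did so among the higher genes. XBP1 turned from -0.33 under basal conditions to 0.44 on tunicamycin (interaction adjusted p = 0.00364). The mitosis list, with 0 of 20 members passing and a median of 0.12 under basal conditions, had 19 lower on tunicamycin and a median of -1.85, and 4 of its members passed the interaction.

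**Figure D3:**
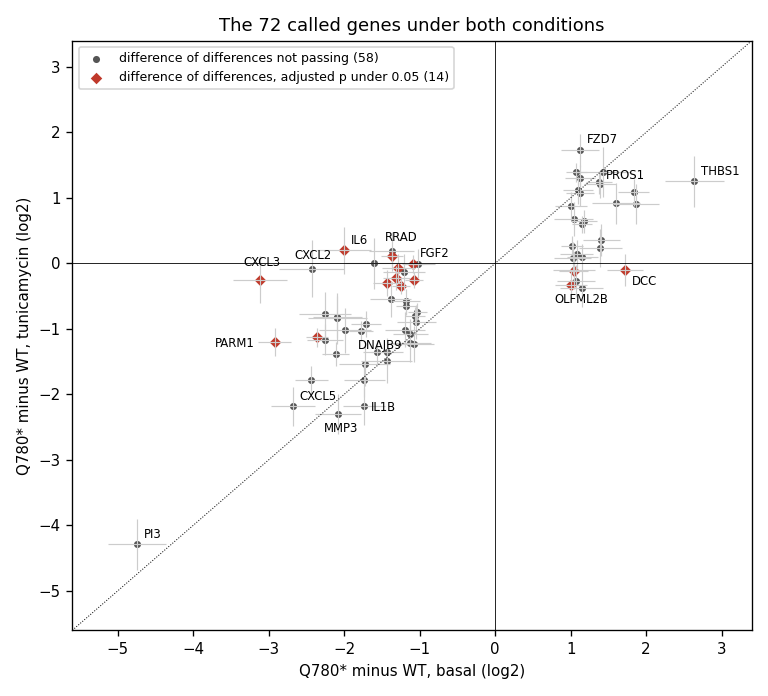
Q780* minus WT difference on tunicamycin (log2, y axis) against that under basal conditions (log2, x axis) for the 72 called genes, with lines for 1 standard error, a dotted line of equality and red diamonds for the 14 genes whose interaction passed. PI3, MMP3 and IL1B lie near the line of equality, and CXCL3, IL6 and DCC near 0 on tunicamycin.

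Several values of the cells and arrays moved with these results or bear on them. Of 17 glioma lineage markers on the array, 9 were at or above the floor on all 6 arrays (CHI3L1, NES, PDGFRA, SLC1A2, SLC1A3, SOX2, SOX4, SOX9 and SOX10), and 3 were below it on all 6 (GFAP, OLIG1 and S100B). The summed linear signal of the 17 was 1239 to 1412 in Q780* and 853 to 994 in WT cells, with SOX9 (0.57) the only one of 14 tested that passed. The sum of 14 neuronal markers was 4696 to 4894 against 4165 to 4259, with SYT13 (0.88) the only one of 12 that passed (MAP2 too with the replicate block over all arrays). Macrophage markers, whose list bears on the cytokines, summed to 326 to 420 against 332 to 461, 0 of 9 tested passed (0 also at an unadjusted p under 0.05 in limma), and PTPRC, CD14, TYROBP, MRC1 and C1QA were below the floor. Endothelial, oligodendrocyte and lymphocyte markers had 0 that passed in limma, adjusted or not. WT replicate 3 was the lowest WT array for 31 of the 44 lower genes and the highest for 23 of the 28 higher genes, against 41% and 36.2% of all genes, so it lay nearer to the Q780* arrays in most of them, and 70 of the 72 passed the adjusted p without it. The 3′ minus 5′ signal of ACTB, a sign of RNA quality, was 1.43 to 1.53 in Q780* and 1.38 to 1.86 in WT cells, and its part in the results was not tested.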

How the data were processed

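Total RNA (6 µg) of U87 cells was hybridized to Affymetrix arrays by the authors, 1 array per sample. The values are log2 signals per probe set that the authors computed with RMA (version not given in the sources used here). RMA subtracts background and makes the distributions of the single probes equal between arrays, so that a shift of most genes is lost and weak signals are compressed. The values per probe set were not fully equal in distribution. Their median was 4.562 and 4.561 on replicate 3 of Q780* and WT cells and 4.613 to 4.615 on the other arrays compared. The cause was not tested. A single gene symbol was known for 40914 of 54715 probe sets, and 864 with several, 12931 with none and 102 controls were left out. Symbols were updated through gene ID for 40858. The probe set with the highest mean stood for each of 19774 genes, and the 17191 at or above the 40th percentile of their array (the floor, 4.25 to 4.31 on the 6 arrays) on at least 2 arrays were tested. The number of arrays limits the precision. Over the genes tested, correlations between arrays of a line were 0.9842 to 0.9927 and between arrays of the 2 lines 0.9818 to 0.991, ranges that overlap. No arrays were identical.

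Groups came from the labels. Means of all 14 groups were fitted in R 4.3.3 with limma 3.58.1, on 26 residual degrees of freedom and 3.436 prior ones, with p-values adjusted over all genes tested. Genes named were ERN1 and XBP1, the 14 highest and 14 lowest called, called members of 38 gene lists, and up to 4 members of each list with the widest differences. Other members and the rest of the called genes were named after their values were seen. The members and lists were chosen with earlier results of these data known. In simulated data with known changes, 96% of those made to differ by 1.5 (log2) between these groups were called. The simulated noise was independent between arrays, so this share does not hold for arrays whose replicates deviate together. Replicates of the same number deviated together (correlations 0.233, 0.226 and 0.493), which meets the rule for pairs, although no source says what a number stands for. The fit reported has no replicate term, and values with the number as a block are given where they change a call or a count. Alternatives were other filters, probe set means, scalings, arrays, tests, thresholds, a replicate block and leaving out each array. Plots were made in Python 3.11.15 with matplotlib 3.10.9. Promoters came from RefSeq (GRCh38.p14), for 31 of 44 lower and 23 of 28 higher genes. Scanner files were not used here.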

Additional observations from a re-analysis of the deposited data

Results flagged for a closer look

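For 28 of the named genes, the difference between Q780* and WT cells itself differed between tunicamycin and basal conditions (interaction in limma, adjusted p under 0.05 over all genes tested). Many of these genes were named for a wide basal difference, which favours values nearer to 0 on tunicamycin. The values below are the tunicamycin difference minus the basal one, on the log2 scale. Among genes lower in Q780* cells under basal conditions, the interaction was 2.865 for CXCL3, 2.201 for IL6, 1.724 for PARM1, 1.477 for RRAD, 1.288 for SLC3A2, 1.233 for HMGN2P46, 1.204 for G0S2, 1.125 for PTPRR, 1.124 for MAFF, 1.088 for DAW1, 1.078 for FGF2, 0.9008 for NUCB2, 0.8127 for SEC11C and 0.5599 for P4HB. Each of these differences was nearer to 0 on tunicamycin, and for IL6 (0.197), RRAD (0.106), SLC3A2 (0.455) and MAFF (0.49) it lay above 0 there. EIF2AK3, the gene of PERK, and SERPINB7, an intracellular protease inhibitor, went further down, with interactions of -0.6475 and -1.318 (tunicamycin differences -1.213 and -2.019). XBP1, which had not passed under basal conditions, had an interaction of 0.7733.

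Among genes higher in Q780* cells under basal conditions, the interaction was -1.818 for DCC, -1.33 for OLFML2B, -1.179 for COL8A1, -1.156 for PLXNA4 and -0.9043 for SYT13, and 1.036 for IGFBP7, which was higher still on tunicamycin (1.761). In genes that had not passed under basal conditions it was -2.786 for CDK1 and -2.476 for MKI67, both markers of dividing cells, -1.598 for ANGPT1, -1.563 for PLAT, the tissue plasminogen activator, and -1.4 for USP18. On tunicamycin the difference was -2.561 for CDK1 and -2.047 for MKI67.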

How the results depend on the processing

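In all, 72 genes were called, and no named difference of a called gene changed sign under any alternative run. The count was 72 with no filter, 72 with a stricter one, 48 with the mean of all probe sets, 70 with centred arrays, 74 after quantile normalization again, 66 on the basal arrays, 72 with trend and robust moderation and 75 with a replicate block over all arrays. Leaving out 1 array gave 52 to 91. The count was 15 genes (2 higher, 13 lower) on only the 6 arrays compared, 9 (1 higher, 8 lower) with the replicate block on these, 185 at 1.5-fold and 316 with no fold minimum. The methods' t-test moved it furthest down, to 0 after Benjamini-Hochberg adjustment, with 71 at its unadjusted threshold. On only the 6 arrays, 1 XBP1s target, 0 ATF6 targets, 1 CXC chemokine, 0 interleukins, 1 NF-kB gene and 0 matrix genes passed in limma, and with the block on these 1, 0, 2, 0, 0 and 0 (the unadjusted counts stand beside each list above). With fewer arrays the spread is estimated less well, and no other cause was tested. The block over all arrays added PDIA3 to the ATF6 targets (7 lower) and IER3 to the NF-kB genes (6 lower), beside the changes given above. With the mean of all probe sets 3 NF-kB and 4 matrix genes passed, and the cause was not tested. Leaving out 1 array gave 3 to 5 NF-kB and 4 to 7 matrix genes. Of called genes, 16 lost the adjusted p without WT replicate 1, 16 without WT replicate 2, 2 without WT replicate 3, and 9, 9 and 10 without Q780* replicates 1, 2 and 3. The counts that passed on tunicamycin, 24 lower and 13 higher, were 26 and 13 with the replicate block, 26 and 13 with trend and robust moderation, and 20 and 11 on only the Q780* and WT arrays, alternatives chosen after seeing the data. Signals near the floor limit the folds of dim genes.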
